A study of Drosophila melanogaster with 24 samples.

Results

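The antimicrobial peptide genes were followed through a study of *Drosophila melanogaster* in which F1 flies were raised in the cold or at the control temperature and their microbiome and germline were passed to F2 flies in every combination. The genes were listed by name, with earlier results of these data known. They are the attacins *AttA*, *AttB*, *AttC* and *AttD*, the diptericins *DptA* and *DptB*, drosocin (*Dro*), defensin (*Def*), metchnikowin (*Mtk*) and drosomycin (*Drs*). Of these 10 genes 8 have values among the 12024 genes of the table, whereas *AttA* and *AttD* were not analysed here. The limit for testing was a value of 10 or more, reached by 3 or more libraries. It was passed by 6 of the 8 genes, which entered the tests together with all other genes above it, 11314 in total. *Dro* reached the limit in 2 libraries and *Def* in 0, so these genes are described by their values alone.

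Each library holds total RNA from 20 whole adult males, collected within hours of emergence and pooled. All flies descend from isogenic stock that carries *w1118* and was kept at 25 °C. The cold-treated F1 flies (F1-18) lived at 18 °C and the control F1 flies (F1-25) at 25 °C, whereas every F2 fly lived at 25 °C. F2 flies developed from washed eggs of F1-18 or F1-25 mothers (the germline source, G18 or G25) in food that F1-18 or F1-25 males had soiled with faeces (the microbiome source, M18 or M25), which gives F2-M18-G18, F2-M25-G25 and the crossed groups F2-M18-G25 and F2-M25-G18. The eggs of cold-treated flies were laid in the cold, so that the germline source also holds the temperature met by the egg, and these cannot be told apart. No F2 flies without a transferred microbiome are among the samples, and the F2-M25-G25 flies serve as controls that went through the same transfer.

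Of 24 samples in 6 groups with replicates A to D, 22 have values. Not analysed here were the C replicates of F1-25 and F2-M25-G18. The values are a normalized signal per gene on a scale close to read counts. In 7150 genes, F2-M25-G25 replicates C and D differ by exact whole numbers from the average of A and B in that group. Such values were taken to be calculated rather than measured and were set to missing. Among the antimicrobial peptide genes this concerns *Drs* alone, which therefore has 2 measured values in F2-M25-G25. The values of the other members in C and D of that group were kept, although these libraries hold calculated values for so many genes. With C and D left out, more members were called for the germline source and for any difference among the groups, as given below. Sequencing depth, recovered from the steps between low values, ranged from 2150000 to 6960000 reads in the 21 libraries where it could be recovered, and 1 read was worth 0.738 to 1.391 units. Libraries carry male markers throughout. The summed signal of the accessory gland genes *Acp26Aa*, *Acp36DE* and *Acp53Ea* and the testis gene *Mst87F* was at least 4641 in the 20 libraries with measured values of all 4, against at most 66.4 for the yolk protein genes *Yp1*, *Yp2* and *Yp3*.

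Doubts about the names of the libraries touch the comparisons in both generations. For the crossed F2 groups the library names give the microbiome source before the germline source, whereas the titles and the sample fields of the same libraries give the opposite. In the study's list of read totals the letters M and G mark the sources in the order of the library names. That list, like the values, has no replicate C of F2-M25-G18. Libraries were grouped by their names, and each statement on F2-M18-G25 or F2-M25-G18 below exchanges microbiome and germline if the sample fields are right. In addition, the recovered depth of 9 of the 21 libraries lay within 0.5% of the total listed for a library of another condition, 5 of 7 in F1 and 4 of 14 in F2. The depth of 2 libraries matched the total under their own name, 4 matched another library of their own condition and 6 matched none. Which list carries the right names was not tested.

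Antimicrobial peptides are the secreted effectors of the humoral immune response of insects. In *Drosophila* most of them are made by the fat body, an organ comparable to liver and adipose tissue, and at lower levels by surface epithelia such as the gut. The Imd pathway senses peptidoglycan of Gram-negative type through the receptors PGRP-LC and PGRP-LE and activates the NF-κB factor Relish, which drives the attacins, the diptericins and drosocin. The Toll pathway is triggered by fungi and Gram-positive bacteria through circulating recognition proteins and a cascade of serine proteases, and its factors Dif and Dorsal drive drosomycin and the small secreted bomanins. Metchnikowin and defensin receive input from both pathways. Enzymes that degrade peptidoglycan, such as PGRP-LB and the PGRP-SC proteins, together with Pirk and Caudal, hold the Imd response to resident gut bacteria in check.

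In the Release 6 assembly, the members lie on 3 chromosome arms and partly side by side. *Dro* (2R:14745961-14746714, plus strand), *AttA* (2R:14747362-14748215, plus strand) and *AttB* (2R:14749223-14750165, plus strand) form a cluster with 647 and 1007 bases between neighbours. *DptA* (2R:18865765-18866260, plus strand) and *DptB* (2R:18867391-18867895, plus strand) are 1130 bases apart. *AttC* (2R:13393705-13394667, plus strand), *Mtk* (2R:15408846-15409113, plus strand) and *Def* (2R:10054178-10054576, minus strand) stand apart on the same arm, *Drs* lies on 3L (3369556-3369942, plus strand) and *AttD* on 3R (17625268-17626086, plus strand). The authors counted uniquely aligned reads only. *AttA* and *AttB* are close copies of each other, and the values of *AttB* are therefore uncertain.

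*Drs* was the only member with a substantial level in every library. Its value ranged from 63.3 to 276.1 over the 20 libraries with measured values. Divided by exon length, its median was 464 per 1000 bases, against 19.7 for *DptA*, 18.0 for *Mtk*, 8.11 for *AttB*, 7.04 for *DptB*, 6.39 for *AttC*, 4.71 for *Dro* and 3.74 for *Def*. The lowest library of *Drs*, at 164 per 1000 bases, lay above the highest library of each other member, of which the highest was 149.6 for *DptA*. The other members rest on few reads. The median over the 21 libraries with recovered depth was 10 reads for *DptA*, 6 for *AttB*, 5 for *AttC*, 4 for *Mtk* and for *Dro*, 3 for *DptB* and 2 for *Def*, which was at 0 reads in 5 libraries.

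Drosomycin is a defensin-like peptide that acts on fungi and is the classical readout of the Toll pathway. In cold-treated F1 flies the 4 values of *Drs* were 276.1, 194.7, 197.9 and 200.1 (217 ± 39.3, SD, n = 4). In control F1 flies they were 146.0, 106.6 and 96.4 (116 ± 26.2, SD, n = 3). All cold-treated libraries thus lay above all control libraries. In F2-M18-G18 flies, which took both sources from cold-treated flies, *Drs* was at 203.0, 263.0, 198.9 and 193.4 (215 ± 32.5, SD, n = 4), and in F2-M25-G25 flies, which took both from control flies, at 63.3 and 83.1 (73.2 ± 14.0, SD, n = 2). The crossed groups followed the germline source of their library names. F2-M25-G18 flies had 180.0, 231.3 and 179.2 (197 ± 29.9, SD, n = 3) and F2-M18-G25 flies 79.2, 70.8, 73.2 and 155.0 (94.6 ± 40.5, SD, n = 4). Replicate D of F2-M18-G25 stood apart from the 3 others of its group, and no library of a G25 group reached the lowest library of a G18 group.

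**Figure D1:**
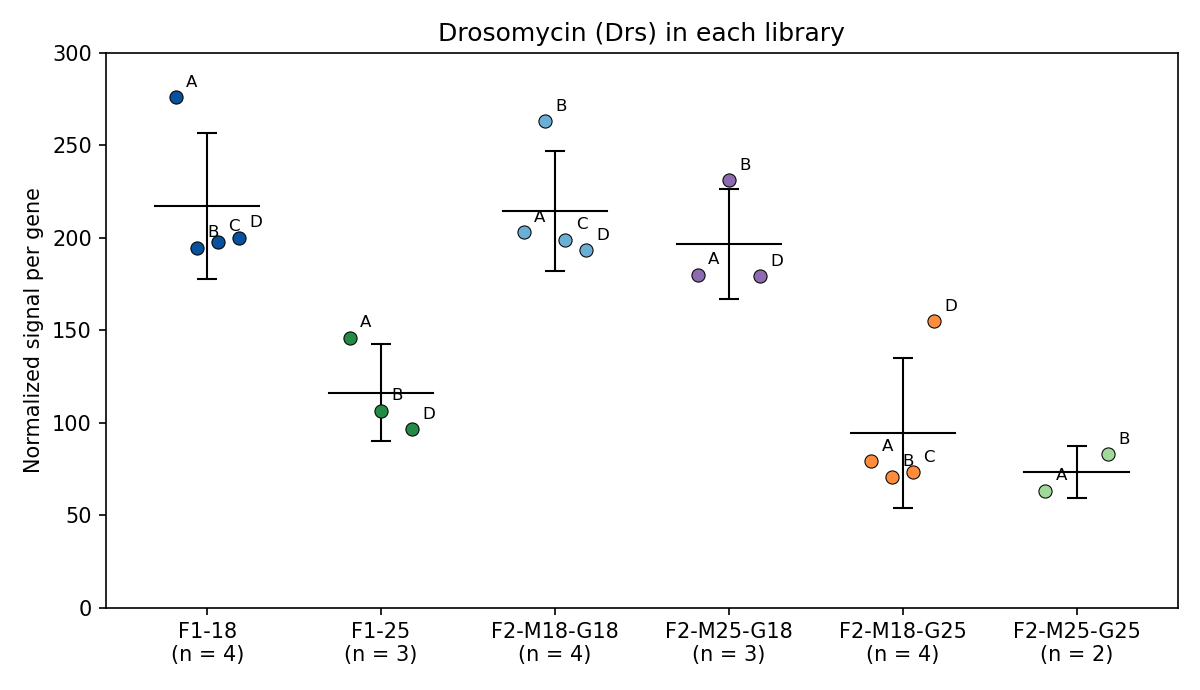
Normalized signal of *Drs* (y axis) in each library of the 6 groups (x axis), with the replicate letter beside each point and the mean and SD as a line and bars. F1-18, F2-M18-G18 and F2-M25-G18 lie between 179.2 and 276.1, whereas F1-25, F2-M18-G25 and F2-M25-G25 lie between 63.3 and 155.0.

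By mean level the groups were ordered F1-18, F2-M18-G18, F2-M25-G18, F1-25, F2-M18-G25 and F2-M25-G25. Neighbours in this order overlapped in their libraries except F2-M25-G18 and F1-25. The ends of the order differed most, and each step within the upper 3 groups or within the lower 3 groups was smaller than the larger SD of the groups beside it.

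The first comparison asked how rearing in the cold changes the expression of these genes in F1. Cold-treated flies had 1.86-fold higher *Drs* than control flies, a log2 fold change of 0.90 ± 0.22 (SE) with an adjusted p = 0.00543 (limma, Benjamini-Hochberg over all genes, on the scale of log2 of the value plus 2, which holds for every fold change given here). *Drs* was the 1 of 6 tested members called, where 23.5% of all genes were called in this comparison. For the other 5 members the fitted log2 fold changes ranged from -0.05 to 1.36 with SEs between 0.48 and 0.82. Without replicate A of F1-25 *DptA* was called as well. *Drs* was not called (log2 fold change 0.91, adjusted p = 0.189 by limma) when the libraries with the depth of another condition were left out, which leaves 1 library in each F1 group.

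The diptericins, glycine-rich peptides against Gram-negative bacteria and the most specific targets of the Imd pathway, varied widely within the F1 groups. *DptA* was at 40.2, 74.2, 15.1 and 10.5 in cold-treated and at 40.3, 1.30 and 8.17 in control F1 flies, so that the groups overlapped. Its log2 fold change of 1.36 ± 0.69 (SE) did not pass the test (limma, adjusted p = 0.163). *DptB* was at 10.1, 18.0, 2.30 and 3.05 in F1-18 and at 9.07, 1.44 and 16.0 in F1-25. Here the same replicates were high in both diptericins in F1-18, A and B, whereas in F1-25 replicate A was highest for *DptA* and replicate D for *DptB*.

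The attacins are larger glycine-rich proteins against Gram-negative bacteria and also targets of the Imd pathway. *AttC* was at 47.1, 35.1, 7.61 and 10.1 in F1-18 and at 18.2, 7.42 and 29.9 in F1-25 (log2 fold change 0.23 ± 0.82, SE). *AttB* ranged from 4.02 to 9.32 in F1-18 and from 0.587 to 13.0 in F1-25. Both attacins overlapped between the groups. *Mtk*, a proline-rich peptide against fungi and Gram-positive bacteria, ranged from 4.83 to 11.0 in F1-18 and from 2.53 to 6.45 in F1-25, again with overlap.

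*Dro*, a proline-rich peptide against Gram-negative bacteria, was at 13.8, 7.02, 3.07 and 7.71 in F1-18 and at 4.39, 0 and 1.2 in F1-25. It was below the limit for testing. When all genes were tested without a limit, its log2 fold change was 1.41 ± 0.48 (SE) with an adjusted p = 0.0386 by limma. *Def*, a peptide against Gram-positive bacteria, was at 1.52, 9.02, 0 and 4.94 in F1-18 and at 8.28, 0.660 and 8.91 in F1-25, with no direction shared by the libraries of a group.

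**Figure D2:**
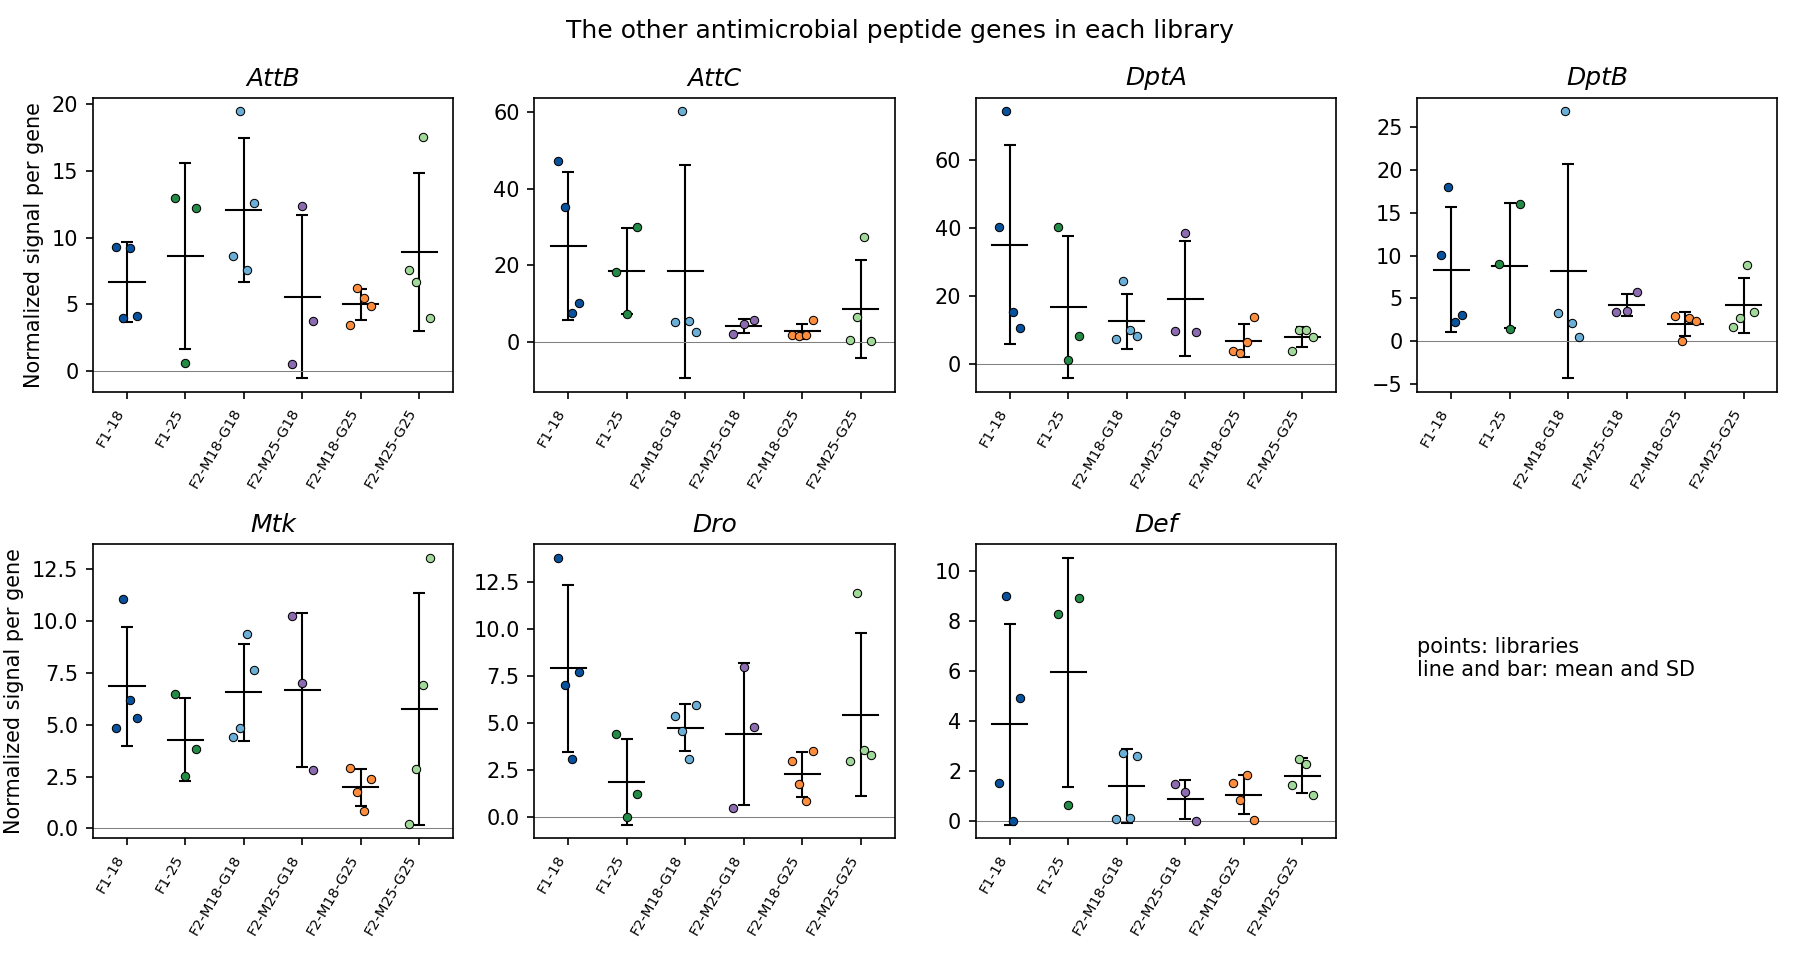
Normalized signal (y axis) of the 7 other members with values in each library of the 6 groups (x axis), 1 panel a gene with its own scale, with the mean as a line and the SD as bars. Single libraries stand far above the rest of their group, such as replicate B of F2-M18-G18 for *AttC* at 60.1 and for *DptB* at 26.9, and the groups overlap in most panels.

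Markers of tissues moved between the F1 groups as well, in a comparison where 23.5% of all genes were called. The fat body genes *Lsp2*, *Fbp1*, *Fbp2* and *apolpp* had 0 of 4 calls in F1, with summed signals of 38668 to 68084 in F1-18 and 32071 to 50458 in F1-25. Their fitted log2 fold changes ranged from -0.62 to 1.30, with a median of 0.57. *Fbp2* was at 5074, 3012, 4285 and 5718 in F1-18 and at 2711, 2077 and 1012 in F1-25. *Lsp2* overlapped between the groups, with 8256 to 15219 in F1-18 and 5633 to 10531 in F1-25. The 4 male markers were lower in cold-treated flies (4 of 4 called, summed signal 4641 to 6812 against 9382 to 10361). Of 6 midgut digestive enzyme genes 3 were lower (*Jon65Aiii*, *Jon99Ci* and *LManV*, summed signal of the list 4278 to 9329 against 5982 to 13295), and of 4 haemocyte markers *Pxn* was higher. *Yp2* was higher in F1-18 by 2.39 ± 0.44 on the log2 scale (SE), and the yolk protein sum was 30.1 to 66.4 against 11.2 to 26.5. In bulk RNA of whole flies, fewer cells of a type and less RNA per cell cannot be told apart, and the part of these tissues in the values of *Drs* was not tested.

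The regulators of both pathways were measured from lists fixed beside the members. Of 18 genes of the Toll pathway 9 were higher and 0 lower in cold-treated F1 flies, with a median log2 fold change of 0.40 against 0.01 over all genes tested, of which 23.5% were called in either direction. With the libraries scaled to equal totals, 3 of the 18 were higher and the median was 0.24. Those with the largest changes were the protease genes *grass* (0.74 ± 0.19, SE) and *modSP* (0.64 ± 0.20), *cact*, which encodes the inhibitor of Dif and Dorsal (0.69 ± 0.13), and *nec*, which encodes a serpin that restrains the protease cascade (0.66 ± 0.20). Of 14 activators of the Imd pathway 3 were higher and 0 lower, a share no larger than that of all genes, and at equal totals 0 were higher and 1 lower. The 3 were *IKKbeta* (0.42 ± 0.14), *Tak1* (0.33 ± 0.10) and *Rel* (0.29 ± 0.10), the last being the gene of Relish. Of 12 brakes of the Imd pathway *scny* (0.44 ± 0.09) and *casp* (0.32 ± 0.08) were higher (1 of 12 at equal totals), and the peptidoglycan amidase genes *PGRP-SC1a* (-3.05 ± 0.84) and *PGRP-SC1b* (-2.92 ± 0.67) lower. These amidases are gut enzymes, and they were lower beside the 3 midgut markers. Their values are low in many libraries of the series. *PGRP-SC1a* had a median of 1.96 and was below 1 in 8 libraries, and *PGRP-SC1b* had a median of 0.80 and was below 1 in 11.

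Among other antimicrobial or immune-induced peptide genes, 19 of 36 listed were tested, of which 4 were higher and 2 lower in cold-treated F1 flies. Of all genes tested, 23.5% were called in either direction. The drosomycin-like gene *Drsl3* rose by 2.48 ± 0.47 on the log2 scale (SE), the bomanin gene *BomS3* by 1.37 ± 0.29, *SPH93* by 1.31 ± 0.32 and *Dso1* by 0.95 ± 0.28. Of these, *Drsl3* has low values, with a median of 1.80 over the series and 7 libraries below 1. *Anp*, the andropin gene of the male ejaculatory duct, fell by 1.42 ± 0.18 and the cecropin gene *CecA1* by 0.97 ± 0.23, beside the lower male markers. The median of the list was 0.15.

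The second comparison asked whether F2 flies with both sources from cold-treated flies differ from those with both sources from control flies, although all lived at 25 °C. *Drs* was 2.88-fold higher in F2-M18-G18 than in F2-M25-G25 (log2 fold change 1.53 ± 0.25, SE, limma adjusted p = 0.00298, with F2-M25-G25 replicates C and D missing). It was again the 1 of 6 members called, where 2.91% of all genes were called. The 5 other members had fitted log2 fold changes from 0.15 to 0.86, with SEs between 0.45 and 0.76 and adjusted p-values of at least 0.613 (limma). The lower group holds only 2 measured values. Without replicate A of F2-M25-G25, which leaves 1 measured value there, the call was lost (log2 fold change 1.34).

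The 5 other tested members overlapped between these groups in their libraries. *AttC* was at 5.27, 60.1, 5.48 and 2.68 in F2-M18-G18 and at 0.646, 6.57, 27.4 and 0.169 in F2-M25-G25. *DptA* was at 7.41, 24.4, 10.1 and 8.12 against values between 3.68 and 10.03, and *DptB* at 3.27, 26.9, 2.07 and 0.482 against 1.65, 2.74, 8.89 and 3.46. Replicate B of F2-M18-G18 was the highest of its group for 6 of the 8 members with values. Replicate C of F2-M25-G25, which has no measured value of *Drs*, was the highest for 4. Replicate B of F1-25 was at the other end, with the lowest value of its group for 7 of the 8 members. *AttB* ranged from 7.61 to 19.5 in F2-M18-G18 and from 3.98 to 17.5 in F2-M25-G25, and *Mtk* from 4.4 to 9.35 and from 0.233 to 13.0.

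The crossed groups separate the sources. With the M18 microbiome, *Drs* was 2.35-fold higher with the G18 than with the G25 germline (log2 fold change 1.23 ± 0.20, SE, limma adjusted p = 0.0111). With the M25 microbiome it was 2.65-fold higher (1.40 ± 0.26, SE, adjusted p = 0.00571). In each of these comparisons *Drs* was the 1 of 6 members called, against 1.77% of all genes with the M18 and 7.06% with the M25 microbiome. The first call was lost without replicate A of F2-M18-G18 (limma adjusted p = 0.0512) and without replicate B (0.0701) or C (0.0739) of F2-M18-G25, at log2 fold changes of 1.26, 1.12 and 1.14. The second was lost without replicate A of F2-M25-G25 (1.21, limma adjusted p = 0.138), and both were lost when libraries with the depth of another condition were left out (1.2 and 1.65, limma adjusted p = 0.0958 and 0.134), which leaves 1 library in F2-M25-G18 for the second.

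For *Drs*, the microbiome source by library name went with smaller differences than the germline source. *Drs* differed by 0.12 ± 0.22 on the log2 scale (SE) between the M18 and M25 microbiomes with the G18 germline, where the interval of 2 SEs runs from 0.806-fold to 1.47-fold, and by 0.29 ± 0.25 with the G25 germline, where it runs from 0.872-fold to 1.73-fold. In the first of these comparisons 0 of 6 members were called by limma, 0 had an unadjusted p under 0.05, and 0.681% of all genes were called. In the second 0 of 6 were called, again 0 had an unadjusted p under 0.05, and 0.0619% of all genes were called. The fitted log2 fold changes of the 5 other members ran from -0.40 to 1.17 in the first and from -0.66 to -0.25 in the second. The highest was that of *AttB* with the G18 germline, at 1.17 ± 0.56 (SE, limma adjusted p = 0.356). With the crossed groups exchanged, *Drs* was called in both of these comparisons and in neither of the comparisons of the germline source.

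Over all 4 F2 groups in an additive model, the germline source gave *Drs* a log2 difference of 1.30 ± 0.15 (SE, G18 above G25, limma adjusted p = 1.36e-04), and 1 of 6 members was called, against 16.3% of all genes. *DptA* differed by 0.80 ± 0.32 (SE, adjusted p = 0.094) and *Mtk* by 0.77 ± 0.35 (adjusted p = 0.148), and all 5 other members had fitted differences above 0 that did not pass the test. *DptA* was called without replicate D of F2-M18-G25, and *Mtk* without replicate D of F2-M25-G25. The microbiome source gave *Drs* 0.20 ± 0.16 (SE, adjusted p = 0.542), and 0 of 6 members were called by limma, 0 at an unadjusted p under 0.05, against 1.62% of all genes. In the model with an interaction 0 of 6 members were called by limma and 1 had an unadjusted p under 0.05, against 0.133% of all genes, and the interaction of *Drs* was -0.17 ± 0.32 (SE, adjusted p = 0.885). The member with the low unadjusted p was *AttB* (1.68 ± 0.66, SE, limma adjusted p = 0.3).

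**Figure D3:**
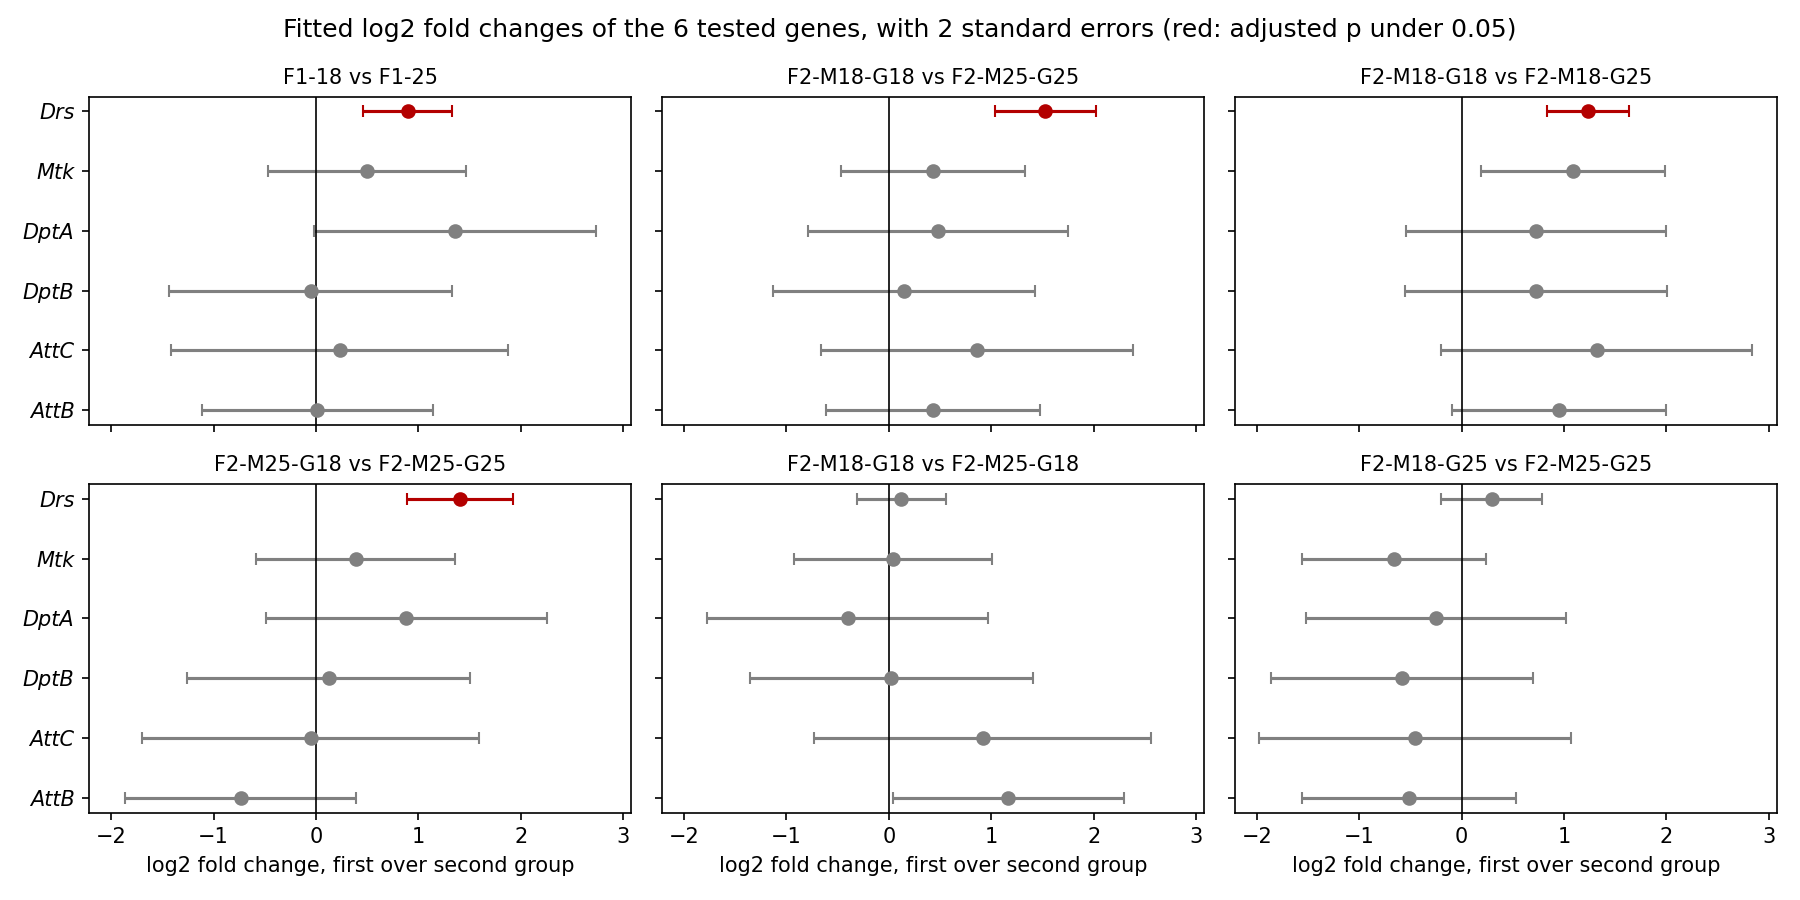
Fitted log2 fold changes (x axis, first over second group) of the 6 tested members (y axis) in 6 comparisons, with bars of 2 SEs and calls at an adjusted p under 0.05 in red. *Drs* is called in the F1 comparison at 0.90, in F2-M18-G18 flies against F2-M25-G25 flies at 1.53 and in both comparisons of the germline source at 1.23 and 1.40, and the other members are called in none of these panels.

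The values of *Mtk* and *AttB* did not overlap between the germline sources under the M18 microbiome. How many of all genes do the same was not counted, so this is given as a description. *Mtk* was at 4.4, 4.83, 9.35 and 7.61 in F2-M18-G18 and at 2.92, 1.74, 0.862 and 2.39 in F2-M18-G25 (log2 fold change 1.09 ± 0.45, SE, limma adjusted p = 0.257). *AttB* was at 8.62, 19.5, 7.61 and 12.6 against 3.49, 6.21, 5.45 and 4.88 (0.95 ± 0.52, SE, adjusted p = 0.41). Neither passed the test. In reads, *Mtk* was at 3, 3, 7 and 9 against 2, 2, 1 and 2. *AttB* was at 6, 14, 5 and 15 reads against 2, 7, 6 and 4, which overlap. Under the M25 microbiome both overlapped, with *Mtk* at 10.2, 6.996 and 2.79 in F2-M25-G18 and *AttB* at 0.556, 12.4 and 3.77.

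The members of low level were also added up. The summed value of the 7 members other than *Drs* was 21.9 ± 7.52 (SD, n = 4) in F2-M18-G25, the lowest mean of the 6 groups, against 63.8 ± 52.8 (n = 4) in F2-M18-G18, 45.1 ± 26.3 (n = 3) in F2-M25-G18 and 42.7 ± 24.8 (n = 4) in F2-M25-G25. In F1 it was 93.6 ± 58.1 (n = 4) in cold-treated and 64.7 ± 44.99 (n = 3) in control flies. The range of F2-M18-G25 (15.6 to 32.8) and that of F2-M25-G25 (18.2 to 76.6) overlapped, and these sums rest on few reads.

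The generations were set side by side within each temperature line. F2-M18-G18 flies had left the cold, and their *Drs* level differed from that of F1-18 by -0.01 ± 0.20 on the log2 scale (SE, limma adjusted p = 0.975). Here 0 of 6 members were called and 0 had an unadjusted p under 0.05, against 14.8% of all genes. F2-M25-G25 flies had lower *Drs* values than F1-25 flies without overlap, but the difference of -0.64 ± 0.26 (SE, limma adjusted p = 0.159) did not pass the test. In that comparison 0 of 6 members were called and 1 had an unadjusted p under 0.05, against 6.59% of all genes. The 4 fat body markers differed by -2.35 to -1.27 on the log2 scale there, with 1 of 4 called. Of the midgut markers 3 of 6 and of the male markers 3 of 4 were called lower. The part of these tissues in the difference of *Drs* was not tested. *Drs* was called there when replicate D of F2-M18-G25, a library of neither group, was left out of the shared fit. In the test for any difference among the 6 groups *Drs* was the 1 of 6 members called (limma adjusted p = 6.38e-05), against 42.5% of all genes, and *AttC* came next (adjusted p = 0.0858). *AttC* was called in that test without replicate B of F2-M18-G18 or without replicate C of F2-M25-G25, the libraries with its highest and a high value, and *DptA* without replicate A of F1-25.

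Fat body markers moved with *Drs* in F2. All 4 (*Lsp2*, *Fbp1*, *Fbp2* and *apolpp*) were called higher in F2-M18-G18 than in F2-M25-G25 and with the G18 germline under either microbiome. *Lsp2*, a larval serum protein gene, differed by 2.36 ± 0.36 on the log2 scale (SE) between the germline sources, *Fbp1*, the gene of a receptor for larval serum protein, by 2.37 ± 0.35, *Fbp2* by 2.49 ± 0.36 and *apolpp*, the gene of the main lipid carrier of the blood, by 1.87 ± 0.27. The median of the list was 2.36 against 0.00 over all genes. *Drs* differed by less, 1.30. The larval fat body persists in part into the freshly emerged adult, which is the stage sampled here. The summed signal of the 4 markers was 75442 to 87681 in F2-M18-G18, 60512 to 73190 in F2-M25-G18, 7748 to 76814 in F2-M18-G25 and 11593 to 11749 in F2-M25-G25 replicates A and B. None of these markers was at 0 in any of the 20 libraries.

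Within F2-M18-G25 the library with the high *Drs* value was also the one with high fat body markers. Replicate D had a *Drs* value of 155.0 and a marker sum of 76814, whereas replicates A, B and C had *Drs* values of 79.2, 70.8 and 73.2 and sums of 16070, 7748 and 13152. Without replicate D the difference in *Drs* from F2-M18-G18 was larger, at 1.49 on the log2 scale. In F1-18 replicate B was lowest in both *Drs* (194.7) and the marker sum (38668), whereas replicate A had the highest *Drs* value (276.1 at a sum of 59217) and replicate D the highest sum (68084 at a *Drs* value of 200.1). In F1-25 replicate A was highest in both (146.0 and 50458) and replicate D lowest in both (96.4 and 32071). Haemocyte markers were also higher with the G18 germline (*Hml* 0.64 ± 0.15 and *NimC1* 0.62 ± 0.18, SE, 2 of 4 called), where 16.3% of all genes were called. The midgut gene *Mal-A1* was higher (1 of 6 called, a share near that of all genes, and 0 of 6 at equal library totals). The male marker *Mst87F* was lower (1 of 4 called). The part of the fat body or of any other tissue in the values of *Drs* was not tested.

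**Figure D4:**
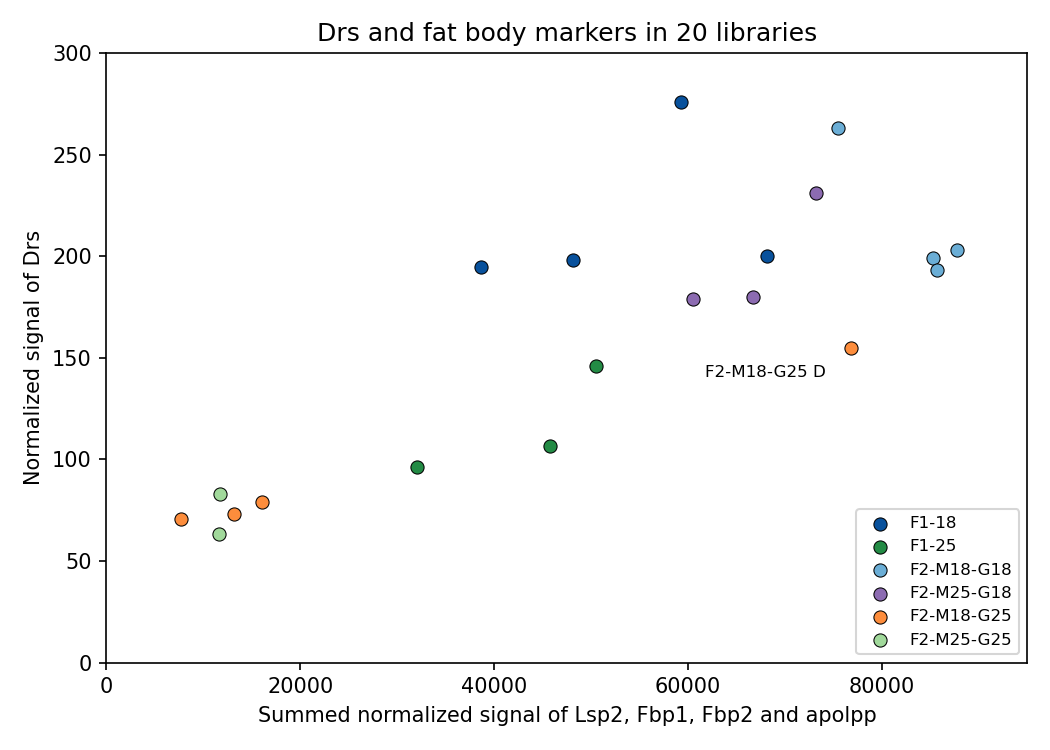
Normalized signal of *Drs* (y axis) against the summed normalized signal of the fat body markers *Lsp2*, *Fbp1*, *Fbp2* and *apolpp* (x axis) in the 20 libraries with measured values, coloured by group. The libraries of F2-M25-G25 and replicates A to C of F2-M18-G25 reach at most 83.1 in *Drs* and 16070 in the marker sum, whereas replicate D of F2-M18-G25 lies at 155.0 and 76814.

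The other genes of the pathways followed the germline source of the library names in part. Of the 19 other peptide genes 13 were higher and 0 lower with the G18 germline, with a median of 0.86, where 16.3% of all genes were called in either direction. The largest differences were in *SPH93* (1.54 ± 0.27, SE), which encodes a serine protease homologue, and in the bomanin genes *BomS6* (1.35 ± 0.22), *BomT2* (1.23 ± 0.21) and *BomS1* (1.05 ± 0.22). Of the 18 Toll pathway genes 7 were higher and 0 lower (median 0.33). Among them *GNBP3*, which encodes a sensor of fungal glucans, differed by 1.28 ± 0.20, and the protease genes *spirit* and *Hayan* by 0.95 ± 0.30 and 0.91 ± 0.18. *nec* differed by 0.56 ± 0.11. Of the 14 Imd activators 5 were higher (median 0.20), with *PGRP-SD*, which encodes a secreted peptidoglycan sensor, at 0.99 ± 0.28, *Uev1A* at 0.37 ± 0.08, *IKKbeta* at 0.35 ± 0.10 and *imd* at 0.33 ± 0.10, and of the 12 brakes 0 were called by limma and 2 had an unadjusted p under 0.05. At equal library totals 2 of the activators were higher and 2 lower, 2 of the brakes lower, and 6 of the Toll pathway genes higher and 2 lower, whereas 12 of the other peptide genes were higher and 0 lower. These genes were not separated from the fat body markers they moved with.

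Of 10 bomanin genes tested, 4 were called by the microbiome source in the additive model. The genes *BomS1* (-1.06 ± 0.22, SE), *BomS4* (-1.04 ± 0.22), *BomBc3* (-0.88 ± 0.20) and *BomS2* (-0.79 ± 0.16) were lower with the M18 microbiome, 4 of 19 other peptide genes against 0 higher, with a median of -0.51, where 1.62% of all genes were called. Within a germline, 0 of the 19 were called by limma, and 10 had an unadjusted p under 0.05 with the G18 and 6 with the G25 germline. Among all 11314 genes tested, 1599 and 1054 had such a p. *BomS1*, for example, was at 75.6 ± 28.2 (SD, n = 3) in F2-M25-G18 and at 37.5 ± 9.62 (n = 4) in F2-M18-G18. Fat body markers had 0 of 4 calls by microbiome source (median 0.44), and *Drs*, a target of the same pathway, had a fitted difference of the opposite sign, 0.20, which did not pass the test. With the crossed groups exchanged, microbiome and germline trade places in this paragraph as well.

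Some pairs of members varied together within groups. Over 20 libraries, with F2-M25-G25 C and D left out and with each value taken as its deviation from the group mean on the log2 scale, 15 pairs of the 6 tested members were compared by permutation within groups. By Pearson's r 5 of the 15 pairs had an adjusted p under 0.05, by rank 1 of 15, and no pair with *AttB* or *Mtk* was among them. *AttC* and *DptB* had the highest correlation (Pearson's r = 0.884, permutation p = 4.1e-04, adjusted p = 0.00615, Spearman's rho = 0.869, adjusted p = 0.00405), and without the 2 libraries farthest from the median of *AttC* r was 0.825. Both genes were high in replicate B of F2-M18-G18 at 60.1 and 26.9 and in replicates A and B of F1-18, and low in replicate B of F1-25. *AttC* and *DptA* reached r = 0.658 (permutation, adjusted p = 0.0234) and *DptA* and *DptB* r = 0.632 (adjusted p = 0.0359), but by rank their adjusted p-values were 0.0616 and 0.111. *Drs* went with *DptA* at r = 0.634 (permutation, adjusted p = 0.0234) and with *AttC* at r = 0.544 (adjusted p = 0.029), and by rank at adjusted p-values of 0.302 and 0.346. The points of a pair share a library and its depth, and most values rest on few reads.

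**Figure D5:**
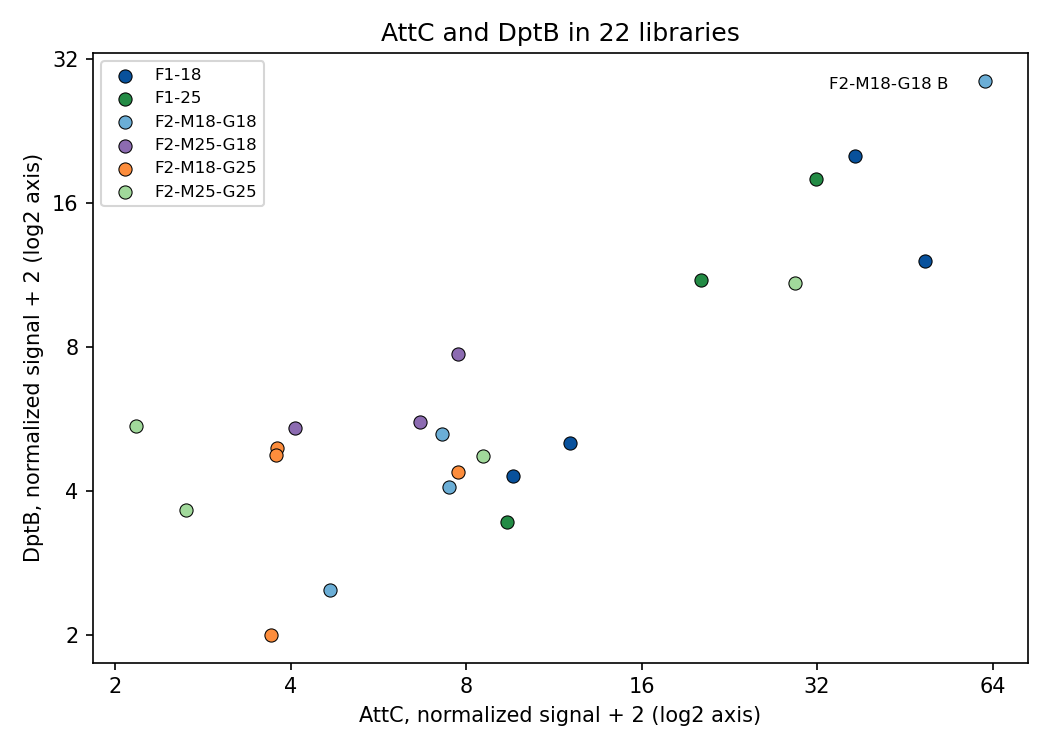
Normalized signal plus 2 of *DptB* (y axis) against that of *AttC* (x axis), both on log2 axes, in all 22 libraries, coloured by group. Replicate B of F2-M18-G18 lies highest at 60.1 for *AttC* and 26.9 for *DptB*, and high and low libraries occur within the same group.

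The genes most like the 6 tested members were sought by Pearson's r over the same 20 libraries, between the log2 value of each other gene tested and the mean of the standardized log2 values of the members. They were *Hnf4* (r = 0.805), *CG12116* (0.804), *Idgf3* (0.779), *Atg18b* (0.763), *CG14823* (0.759), *GstE3* (0.759), *NimB5* (0.752), *Mtpbeta* (0.746), *GstZ1* (0.746) and *P5cr-2* (0.74). *Hnf4*, the gene of a nuclear receptor that controls lipid use, was highest in F1-18 with a mean of 413 and lowest in F2-M18-G25 with 292, the group with the lowest sum of the other members. The genes most like *Drs* alone, a choice made after its values were seen, had higher r, from 0.948 for *Jhe*, the gene of juvenile hormone esterase, through *Fbp2* (0.946), *Ance-4* (0.943), *SPH93* (0.942) and *Srg1* (0.932) to *CG8369* (0.922). *Jhe* had means of 199 in F1-18, 231 in F2-M18-G18 and 193 in F2-M25-G18 against 101 in F1-25, 76.4 in F2-M25-G25 and 100.3 in F2-M18-G25, which is the split seen in *Drs*. All points share libraries and groups, and these correlations describe likeness of pattern only.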

How the data were processed

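Total RNA of whole males was sequenced after depletion of ribosomal RNA. The authors removed remaining ribosomal reads, trimmed with Trimmomatic 0.32, aligned with STAR 2.4.0f1 to Release 6 of the genome and used HTSeq 0.6.1 to count strand-matched, uniquely placed reads per gene. The deposited unit is a normalized signal for each gene, made by the authors from these counts by TMM normalization in edgeR. The values are not whole numbers, so limma was used on log2 of the value plus 2.

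A model with 1 mean per group was fitted to all 22 libraries for the 11314 genes that reached a value of 10 in 3 or more libraries (limma 3.58.1 in R 4.3.3, two-sided, with a mean-variance trend). Calls were made at 0.05 after Benjamini-Hochberg adjustment. The models of both sources, additive or with an interaction, took in F2 libraries only. Missing calculated values lower n in F2-M25-G25. The replicates are described as biological. Values sum to 3702933 to 4398050 per library. The value of 1 read was recovered from the steps between low values. The fit was tested on simulated data. Other tables and figures used Python 3.11.15 with pandas 2.3.3, numpy 2.4.6, matplotlib 3.10.9 and scipy 1.17.1, and 100000 permutations per correlation.

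The members and lists were chosen with earlier results of these data known. Named genes are all members, at most 4 called genes per list and direction, and the 10 genes most like the members. Positions come from an Ensembl annotation of the same assembly. Alternatives covered scaling, filter, pseudocount, calculated values, replicate block, libraries in the fit, variance model, each library left out and the exchange of the crossed groups. Leaving out F2-M25-G25 replicates C and D, or libraries with the depth of another condition, was added after seeing the data.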

Additional observations from a re-analysis of the deposited data

Results flagged for a closer look

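Of 31 groups of 4 libraries, examined for each member with values, 8 held 1 library whose gap to its nearest neighbour, as a share of the range of the group, exceeded the 95% critical value of Dixon's test. That critical value gives about 1 in 20 such groups for independent normal values. Values that rest on few reads and share libraries are not of that kind, so the count was not set against chance. In F2-M18-G18, replicate B was far above the other libraries for *AttC* (60.1, others 2.68 to 5.48), *DptA* (24.4, others 7.41 to 10.1), *DptB* (26.9, others 0.482 to 3.27) and *Drs* (263.0, others 193.4 to 203.0), so that 4 of the 8 cases come from this library. In F2-M18-G25, replicate D was far above the others for *Drs* (155.0, others 70.8 to 79.2), and this library also had the high fat body markers given above. It was flagged for *AttC* too (5.75, others 1.70 to 1.79), which is 5 reads against 1, 2 and 2. Replicate A of F1-18 stood above the others for *Drs* (276.1, others 194.7 to 200.1). Replicate B of F2-M25-G25 stood above the others for *Dro* (11.9, others 2.97 to 3.58).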

How the results depend on the processing

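*Drs* kept its direction in every alternative run, in F1 and in the comparisons where it was called. Its calls changed as follows, the causes being untested. With the crossed groups exchanged, the number of members called was 0 for the germline source under either microbiome (*Drs* 0.12 and 0.29) and in the additive model (0.20), and 1 for the microbiome source under either germline and in the additive model. When libraries with the depth of another condition were left out, it was 0 in F1 (*Drs* 0.91) and for the germline source under either microbiome (1.2 and 1.65), and 2 for any difference among the groups. Without a filter it was 2 in F1 (*Drs* and *Dro*). Without F2-M25-G25 replicates C and D it was 3 for any difference (*AttC*, *Drs* and *Mtk*) and 2 for the germline source. Leaving out 1 library at a time, the number called ranged from 1 to 2 in F1, for any difference and for the germline source, and from 0 to 1 for F2-M18-G18 against F2-M25-G25, in F2-M25-G25 against F1-25 and for the germline source under either microbiome, where *Drs* ranged from 0.77 to 1.07 in F1, 1.34 to 1.72 for F2-M18-G18 against F2-M25-G25, 1.12 to 1.49 with M18 and 1.21 to 1.596 with M25, and from 1.23 to 1.46 in the additive model. Scaling to equal library totals put the median of all genes at -0.14 in F1 (otherwise 0.01), where *Drs* was at 0.74, and at -0.17 (otherwise 0.00) in F2-M25-G18 against F2-M25-G25, where it was at 1.22. In F1 it called 574 genes higher and 2365 lower, otherwise 1240 and 1420, and for the germline source 681 and 2007, otherwise 1072 and 767.

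No pairing by replicate letter was seen in the tested genes without calculated values. Their deviations from the group means correlated at a mean r of -0.01 between libraries of the same letter (51 pairs, 7 over 0.1) and 0.00 between other letters (150 pairs). The genes with calculated values were left out, and the letters share the doubts about the library names, so pairing is not excluded. With the replicate block *Drs* was at 0.95 in F1, 1.58 for F2-M18-G18 against F2-M25-G25, 1.23 and 1.40 for the germline source and 1.27 in the additive model, and no count of members called changed, the test for any difference included.

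The members other than *Drs* rest on a median of 2 to 10 reads. They also spread widely within groups, as *AttC* in F2-M18-G18 with 46 reads in replicate B and 3 to 4 in the others, and the part of depth in the missing calls was not tested.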
